A study of Mus musculus with 24 samples.

Results

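Messenger RNA of the mouse hippocampus was compared between aged (15-month-old) and young (2-month-old) animals. The 6 hippocampal mRNA libraries were taken from the 24 libraries of the series by their tissue, library type and age, with 3 male C57BL/6J mice at each age. The study measured mRNA and small RNA in hippocampus and hypothalamus to describe brain ageing, and the comparison here asks which pathways, cell types and gene classes differed with age in the hippocampus. The hippocampus serves spatial and episodic memory, and its dentate gyrus is one of the few places where neurons are still born in the adult rodent brain. Ageing of this tissue is known for loss of newborn neurons, changes in myelin and glia, and immune activation. Bulk tissue mixes all of its cell types, so that fewer cells of a type and less RNA per cell cannot be told apart in these libraries.

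The young libraries held 25108435, 25235276 and 24902188 expected counts and the aged libraries 26234264, 25630865 and 26110942, with between 16621 and 16730 genes listed in each. Levels are given below as counts scaled to library size (CPM), with n = 3 libraries per age, and levels of different genes are compared only as FPKM, which divides by transcript length. Of 17842 genes listed in any hippocampal library, 14820 had enough counts to be tested. Library pairs correlated across genes with Pearson coefficients from 0.985 to 0.992 within an age and from 0.983 to 0.989 between the ages (log2 CPM; genes are not independent replicates). The first principal component held 34.3% of the variance and placed all young libraries on one side of all aged libraries, while the second held 28.3% and mixed the ages. Transcripts of the Y-linked Ddx3y, Eif2s3y, Kdm5d and Uty were found in all 6 libraries, as labelled for males. The files held mostly protein-coding transcripts, without genes of the mitochondrial genome and without the long noncoding Xist, Meg3 and H19.

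Genes with less mRNA in the aged hippocampus included Gamt, Mog, Mal and Opalin of myelin, Gpr17 and Neu4 of young oligodendrocytes, Top2a of dividing cells, and Dbp and Ciart of the circadian clock. Genes with more mRNA included 6 clustered protocadherins, complement C4b and the MHC class II chain H2-Aa. Across all genes, 739 had a fold change over 1.5 at any p, and the median size of the log2 fold change was from 0.11 to 0.27 in 5 groups of genes by mean level. With edgeR's quasi-likelihood test, 43 of 14820 genes (0.290%) were differentially expressed genes (DEGs), of which 16 (0.108%) were upregulated and 27 (0.182%) were downregulated in aged mice. A further 185 genes had a fold change over 1.5 with an adjusted p between 0.05 and 0.1. At an unadjusted p under 0.05 there were 3362 genes (22.7%). DESeq2 called 218 of 14712 genes (1.48%), 88 higher (0.598%) and 130 lower (0.884%), and these included all 43 DEGs. All aged libraries were above all young libraries in 2168 genes (14.6%) and below them in 2069 (14.0%). Counts without overlap in the lists below are to be read beside these shares.

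The number of DEGs rested on single libraries. Without aged mouse 4 there were 4 DEGs, without young mouse 2 there were 6, without young mouse 3 there were 18 and without aged mouse 6 there were 27. Without young mouse 1 the number was 81, and without aged mouse 5 it was 35. Only Wdfy1, Nnt, Gamt and Entpd4b were called in all 6 fits that left out 1 mouse. Traip was called in 5 of the 6 fits, and C4b, Dbp, Pcdhb3, Pcdhb9 and Pcdhga8 in 4. Mal, Ccnb1, Park2, Apcdd1, Pcdhga7 and Plin4 were called in 0 of the 6 fits, which kept adjusted p from 0.0487 to 0.245. The direction of each of the 43 DEGs was the same in each of these fits. Below, a value without a mouse comes from the fit that left out that mouse alone, with values in the order of the mice.

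**Figure D1:**
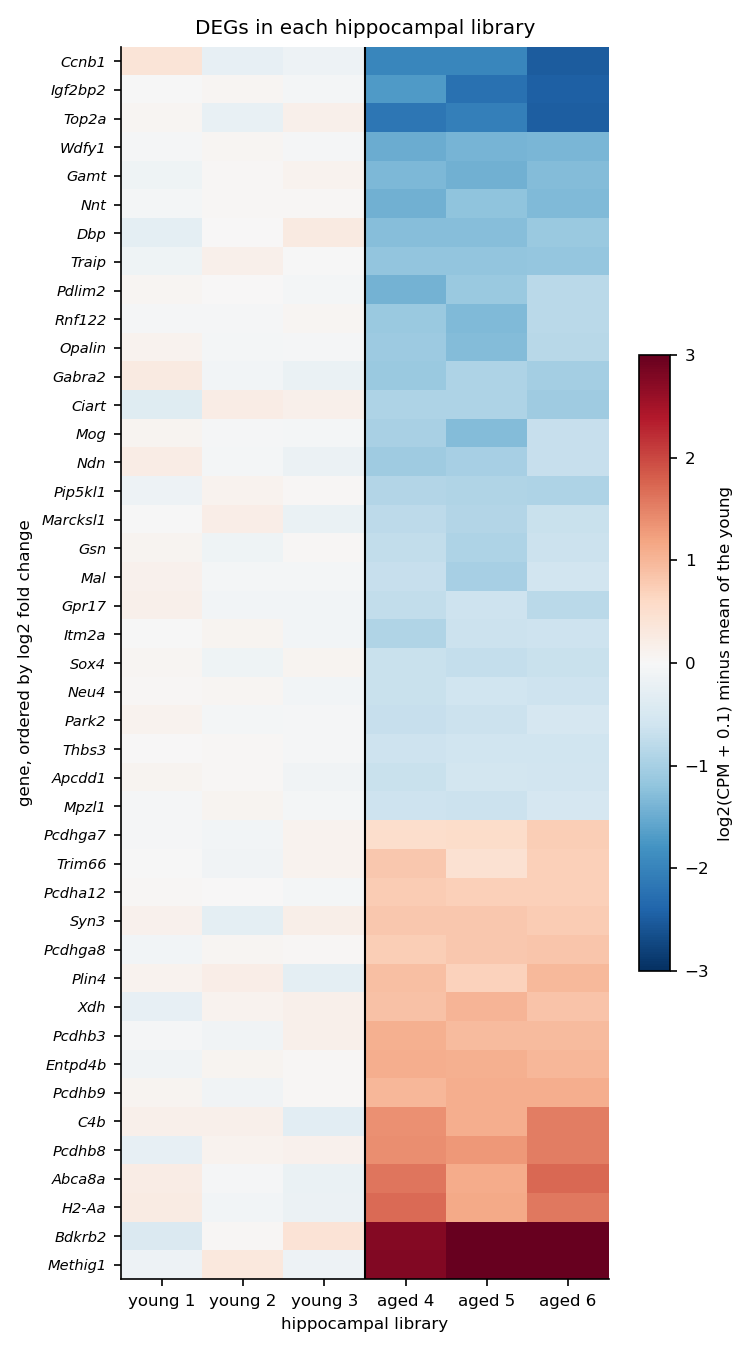
Level of each of the 43 DEGs in the 6 hippocampal libraries, as log2(CPM + 0.1) minus the mean of the 3 young libraries, with genes ordered by log2 fold change. All 27 downregulated genes are below and all 16 upregulated genes above the young range in each of the 3 aged libraries.

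Small fold changes followed transcript length. Across genes sorted by transcript length into 5 groups of 2964 genes, the median log2 fold change went from -0.13 in the shortest, through -0.059, -0.0068 and 0.041, to 0.12 in the longest. Of the shortest group, 679 genes (22.9%) were lower and 117 (3.95%) were higher in all aged than in all young libraries, and of the longest group 141 (4.76%) were lower and 890 (30.0%) were higher. The longest group relative to the shortest stood at -0.086, -0.20 and -0.087 (log2) in the young libraries and at 0.18, 0.012 and 0.17 in the aged libraries. No young value reached the lowest aged value, which was that of aged mouse 5. DEGs were found in each length group, with 12 in the shortest and 8 in the longest. In the hypothalamic libraries of the same study the length groups ran from -0.14 to 0.076, where young mouse 3, at 0.087, was on the aged side. With the length trend removed, 33 DEGs were found, of which 27 were among the 43. Mean level was related to the fold change as well. The group of 2964 genes with the lowest CPM had a median log2 fold change of -0.084 and that with the highest CPM 0.059, and the DEGs numbered 8 and 6 in these groups. Whether the length trend came from the tissue or from the RNA and library preparation was not tested, and medians with it removed are given below for many gene groups.

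**Figure D2:**
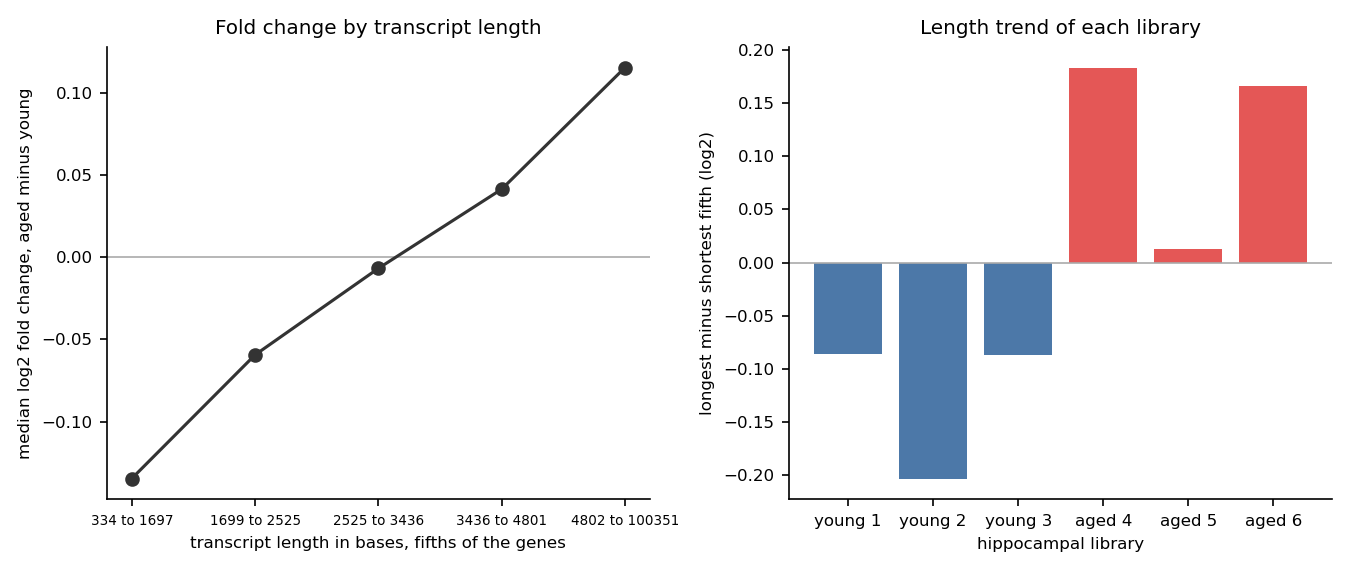
Left, median log2 fold change of hippocampal genes in 5 groups of transcript length (2964 genes each), rising from -0.13 to 0.12; right, longest minus shortest group in each library (log2), negative in the 3 young and positive in the 3 aged libraries.

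The lists of myelin and of newly formed oligodendrocytes held 7 DEGs, all of them downregulated. Of 42 tested genes of myelin and mature oligodendrocytes, 5 were downregulated and none was upregulated by edgeR, and DESeq2 called 10 lower and 1 higher. Aged libraries were below all young libraries for 18 of these genes and above them for 3, and the median log2 fold change was -0.28 (-0.23 with the length trend removed). The summed level of the list was 14659, 13637 and 13499 CPM in the young and 11052, 8863 and 12829 CPM in the aged libraries, so that the aged range lay below the young. Gamt, which makes creatine and is abundant in oligodendrocytes, was at 19.8, 22.3 and 23.5 CPM in the young and 8.51, 7.98 and 8.79 CPM in the aged libraries. All aged values lay far under the lowest young value, and Gamt was downregulated (log2 fold change -1.38 ± 0.10 (SE), adjusted p 0.00253). Opalin, a membrane protein of the myelin sheath, was at 21.5, 19.2 and 19.7 CPM in the young and 9.37, 8.05 and 11.3 CPM in the aged libraries. Here too the ages were apart, with aged mouse 5 lowest, and Opalin was downregulated (log2 fold change -1.07 ± 0.13 (SE), adjusted p 0.0288). Mog, the outermost protein of the central myelin sheath, was at 123.1, 114 and 112 CPM in the young and 59.6, 47.2 and 72.2 CPM in the aged libraries. No aged value reached a young one, and Mog was downregulated (log2 fold change -0.96 ± 0.14 (SE), adjusted p 0.0400). Gsn, which cuts actin filaments as oligodendrocytes wrap axons, was at 144, 125 and 139.6 CPM in the young and 80.95, 71.5 and 86.99 CPM in the aged libraries. The groups did not overlap and Gsn was downregulated (log2 fold change -0.77 ± 0.090 (SE), adjusted p 0.0271). Mal, a raft protein that sorts proteins into myelin, was at 532, 470.3 and 469 CPM in the young and 305, 245 and 326 CPM in the aged libraries. Its aged libraries were all below the young ones and it was downregulated (log2 fold change -0.75 ± 0.11 (SE), adjusted p 0.0446). Mbp, the major structural protein of compact myelin and with 2042 FPKM the most abundant member, was at 4896, 4392 and 4191 CPM in the young and 3682, 2824 and 3972 CPM in the aged libraries. Its aged values were all lower, yet Mbp was no DEG (log2 fold change -0.36 ± 0.13 (SE), adjusted p 0.161). Cldn11, the tight-junction protein of myelin, stood at 357, 372 and 388 CPM in the young and 232, 161 and 246 CPM in the aged libraries. Young and aged values did not overlap, and the adjusted p was 0.0632 by edgeR and 1.33e-05 by DESeq2. With 1 mouse left out, Opalin and Gsn were called only without young 1, aged 5 or aged 6, Mog only without aged 5 or aged 6, and Mal never. Opalin, Mog and Mal were no DEGs with the length trend removed (log2 fold change -0.90, -0.88 and -0.73, adjusted p 0.0687, 0.0644 and 0.0514). The median of myelin and mature oligodendrocytes was -0.47 without aged 6.

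Of 10 genes of newly formed oligodendrocytes, 2 were downregulated by edgeR and 4 by DESeq2, and 5 were lower without overlap. Their median log2 fold change was -0.46, and their summed level of 554, 460.2 and 442 CPM in the young and 423, 329.7 and 485 CPM in the aged libraries overlapped between the ages because of aged mouse 6. Gpr17, a receptor that marks cells on the way from precursor to myelinating oligodendrocyte, was at 99.1, 83.3 and 84.1 CPM in the young and 52.7, 57.8 and 50.2 CPM in the aged libraries. Every aged value was below the young range and Gpr17 was downregulated (log2 fold change -0.73 ± 0.089 (SE), adjusted p 0.0288). Neu4, a sialidase of young oligodendrocytes, was at 18.04, 18.4 and 16.6 CPM in the young and 11.01, 11.6 and 11.4 CPM in the aged libraries. Without overlap between the ages, Neu4 was downregulated (log2 fold change -0.64 ± 0.086 (SE), adjusted p 0.0317). Bcas1, the most abundant of these genes at 78.002 FPKM, overlapped between the ages, with 291, 236 and 213 CPM in young and 242, 180.0 and 251 CPM in aged libraries. Of 13 genes of oligodendrocyte precursors, edgeR's test called 0 of them, with 5 lower and 1 higher at an unadjusted p under 0.05, and DESeq2 called 1. The summed level of the precursor genes was 639, 629.8 and 637 CPM in the young and 590.1, 602 and 566 CPM in the aged libraries, with a median log2 fold change of -0.17. Cspg4, the surface proteoglycan NG2 of precursors, was at 48.8, 44.7 and 39.4 CPM in the young and 33.1, 36.8 and 33.1 CPM in the aged libraries. These values did not overlap and the log2 fold change was -0.37 (adjusted p 0.0870). Removing the length trend moved the medians of the 3 lists to -0.23, -0.45 and -0.19. Thalamic markers, at 597, 327 and 394 CPM in the young and 513, 132 and 804 CPM in the aged libraries, were likewise lowest in aged mouse 5 and highest in aged mouse 6 of the aged mice. Tcf7l2 was a member of both the thalamic and the newly formed oligodendrocyte list, so their sums were not independent. Whether the cut of the tissue, fewer oligodendrocytes or less mRNA in each gave these values was not tested. In fits of 5 mice, Gpr17 was called only without young 1 or aged 5, and Neu4 only without young 1.

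**Figure D3:**
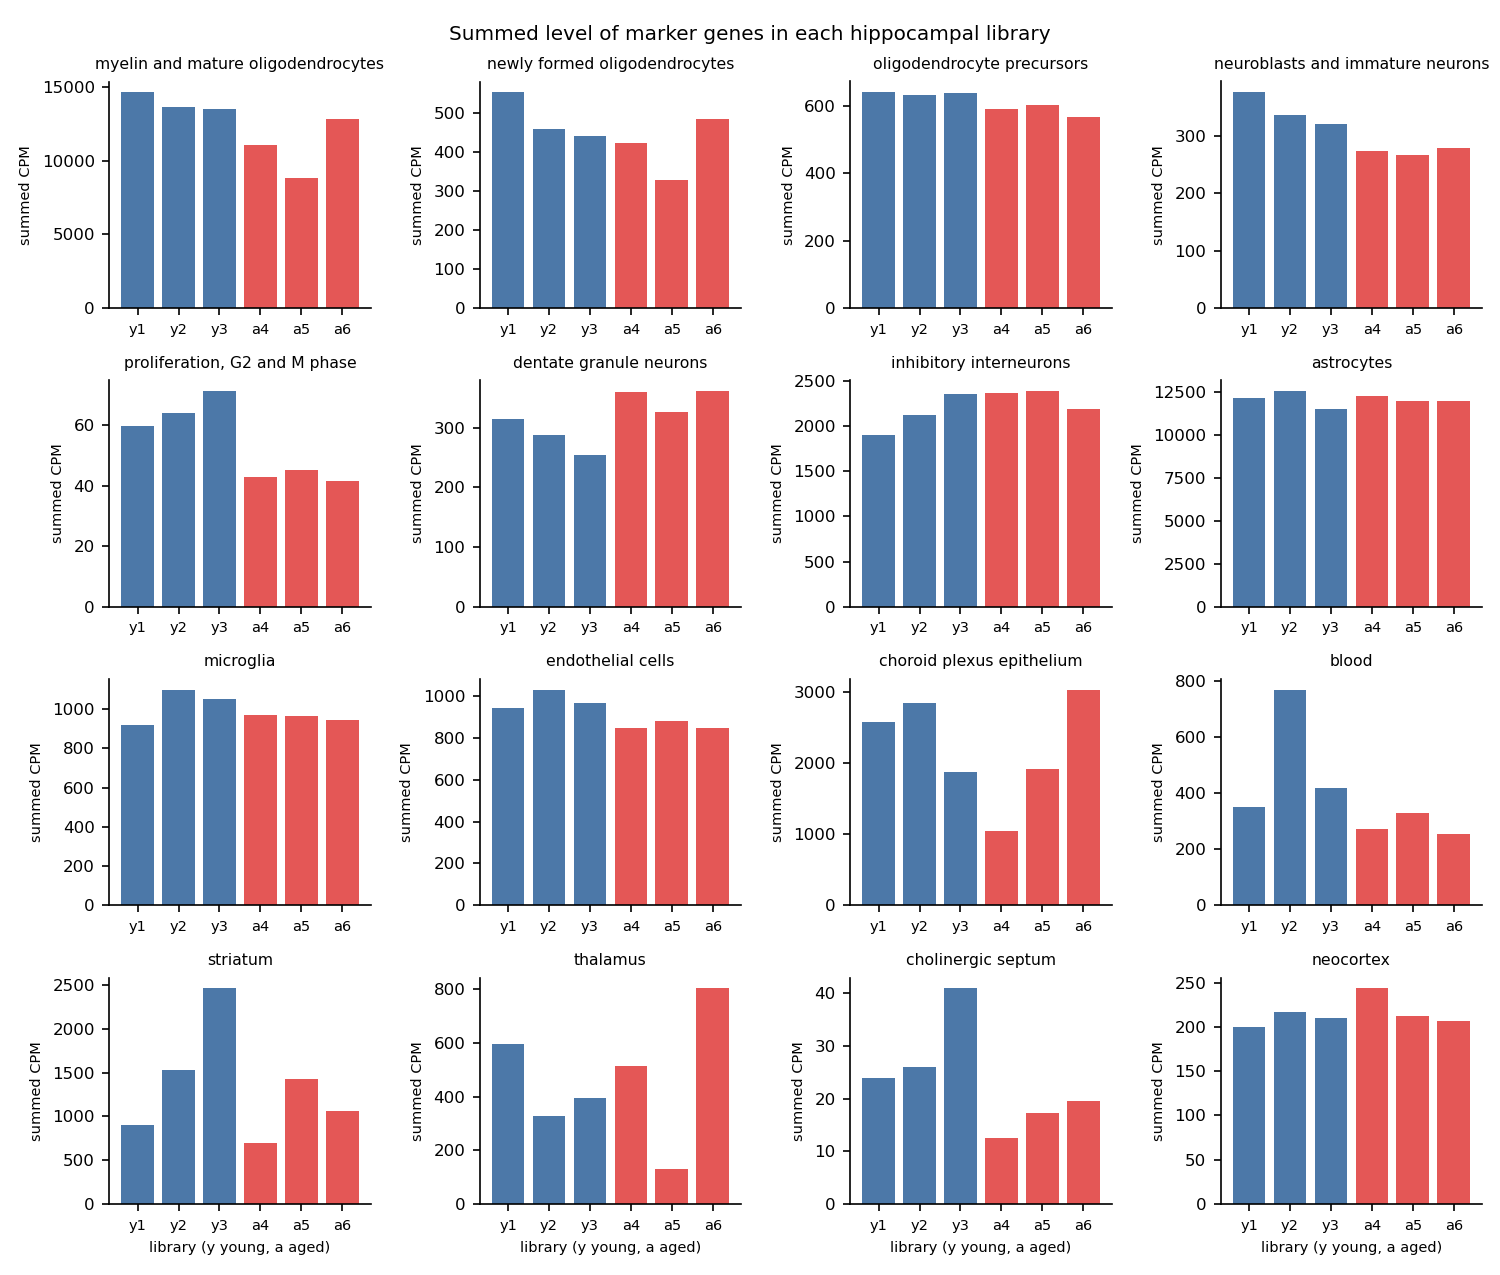
Summed CPM of the marker genes of 16 cell types and neighbouring regions in each hippocampal library (young in blue, aged in red). Myelin, precursor, neuroblast, G2 and M phase, endothelial, blood and septal sums are lower in all 3 aged libraries, granule neuron sums are higher in all 3, and the other sums overlap.

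Top2a and Ccnb1 of dividing cells and Sox4 of young neurons were downregulated in the aged hippocampus, while the other genes of these lists were no DEGs. The list of G2 and M phase genes, which are on only in cells about to divide, had a median log2 fold change of -0.88. Of its 26 tested members, 2 were downregulated by edgeR and 7 by DESeq2, and 17 were lower and 0 higher in all aged than in all young libraries. The median was -0.81 over the 19 genes that had 10 counts or more in each library. The 27 listed genes summed to 59.8, 63.998 and 71.3 CPM in the young and 42.96, 45.2 and 41.7 CPM in the aged libraries, without overlap between the ages. Top2a, which untangles DNA before mitosis, was at 2.92, 2.36 and 3.13 CPM in the young and 0.547, 0.595 and 0.418 CPM in the aged libraries. Every aged value was below every young value, and Top2a was downregulated (log2 fold change -2.42 ± 0.25 (SE), adjusted p 0.0172). Ccnb1, the cyclin that starts mitosis, was at 1.21, 0.746 and 0.802 CPM in the young and 0.156, 0.159 and 0.0761 CPM in the aged libraries. The ages were apart and Ccnb1 was downregulated (log2 fold change -2.78 ± 0.43 (SE), adjusted p 0.0457), with 4, 4 and 2 counts in the aged libraries, too few to be tested where 10 counts were required in every library. Mki67, a nuclear protein of cycling cells, was at 3.97, 3.3001 and 4.29 CPM in the young and 1.87, 1.75 and 1.48 CPM in the aged libraries. All 3 aged values were lower and the adjusted p was 0.0514 by edgeR and 0.00106 by DESeq2. Spag5, a spindle protein, was the most abundant member at 3.83 FPKM and overlapped between the ages (log2 fold change 0.034). When single mice were left out, Top2a was called only without young 1, aged 5 or aged 6, and Ccnb1 never. Ccnb1 was no DEG with the length trend removed (log2 fold change -2.73, adjusted p 0.0594). The median of proliferation, G2 and M phase was -0.34 on log2(FPKM + 1).

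S phase genes, which copy DNA and also serve its repair, had a smaller median log2 fold change of -0.26. Of their 18 tested members, edgeR's test called 0 of them, with 5 lower and 0 higher at an unadjusted p under 0.05, and DESeq2 called 1, while 6 were lower and 0 higher without overlap. Uhrf1, which copies DNA methylation to new strands, was at 2.34, 2.16 and 1.72 CPM in the young and 0.664, 0.833 and 0.494 CPM in the aged libraries. No overlap was seen between the ages and the adjusted p was 0.0531. Pcna, the clamp of the replication fork and the most abundant member at 34.99 FPKM, was at 42.4, 43.2 and 39.96 CPM in the young and 42.3, 41.98 and 40.1 CPM in the aged libraries. Young and aged values of Pcna overlapped (log2 fold change -0.014 ± 0.063 (SE), adjusted p 0.920). The median of proliferation, S phase was -0.17 on log2(FPKM + 1).

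Of 13 genes of neuroblasts and immature neurons, 1 was downregulated by edgeR and 2 by DESeq2, and 6 were lower without overlap. Their summed level was 376, 336 and 322 CPM in the young and 274, 267 and 279.6 CPM in the aged libraries, lower in each aged library than in any young library, and the median log2 fold change was -0.36. Sox4, a transcription factor of young neurons, was at 20.3, 17.8 and 20.5 CPM in the young and 12.2, 11.9 and 12.2 CPM in the aged libraries. The groups were apart and Sox4 was downregulated (log2 fold change -0.69 ± 0.090 (SE), adjusted p 0.0317). Sox11, its close relative in the same cells, was at 24.003, 26.99 and 23.3 CPM in the young and 17.1, 15.4 and 17.5 CPM in the aged libraries. The aged libraries were all lower, and the adjusted p of Sox11 was 0.0531 by edgeR and 3.07e-04 by DESeq2. Tubb2b, a tubulin of growing neurons and the most abundant member at 77.8 FPKM, was at 184, 159 and 143 CPM in the young and 125, 131 and 122 CPM in the aged libraries. Its aged values were all lower (log2 fold change -0.36, adjusted p 0.0893). Of the 7 tested genes of neural stem and progenitor cells, edgeR's test called 0 of them, with 3 lower and 0 higher at an unadjusted p under 0.05, and DESeq2 called 0. The same G2 and M phase list had a median of -0.24 in the hypothalamus, and that of neuroblasts -0.052. Removing the length trend gave hippocampal medians of -0.91 for the list proliferation, G2 and M phase, -0.26 for S phase and -0.39 for neuroblasts. Precursors of oligodendrocytes divide as well, so the dividing cells behind these values cannot be told apart here. With 1 mouse left out, Sox4 was called only without young 1.

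Promoters of the G2 and M phase genes were searched for the CCAAT box, the site of the factor NF-Y, on both strands of the 300 bases listed for each gene. It was found in 17 of the 22 promoters of the list that are in the reference (77.3%), and in 10248 of 27025 promoters of all genes (37.9%). The promoter of Top2a held 6 sites, that of Ccnb1 2 and that of Mki67 3. Sequences run along the transcribed strand in lower case with the sites of either strand in capitals, at chr11:99024140-99024439 for Top2a and chr13:100786437-100786736 for Ccnb1, both on the minus strand of GRCm38.p6.

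Top2a promoter: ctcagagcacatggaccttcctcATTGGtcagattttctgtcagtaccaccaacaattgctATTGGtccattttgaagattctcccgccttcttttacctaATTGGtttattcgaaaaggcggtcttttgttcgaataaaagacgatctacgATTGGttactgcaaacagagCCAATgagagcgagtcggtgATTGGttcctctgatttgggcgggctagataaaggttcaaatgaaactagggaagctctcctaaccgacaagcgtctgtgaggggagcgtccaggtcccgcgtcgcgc

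Ccnb1 promoter: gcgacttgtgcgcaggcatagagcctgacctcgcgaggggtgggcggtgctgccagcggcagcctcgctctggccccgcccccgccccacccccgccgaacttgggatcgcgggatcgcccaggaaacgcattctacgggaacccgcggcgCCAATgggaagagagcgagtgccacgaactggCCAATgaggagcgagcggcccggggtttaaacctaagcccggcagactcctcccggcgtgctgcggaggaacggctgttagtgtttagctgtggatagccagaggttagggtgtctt

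The lists of neuronal markers, synaptic proteins, channels and receptors held 2 DEGs, Syn3 and Gabra2. The summed level of dentate granule neuron markers was 314, 288 and 254 CPM in the young and 360.0, 326 and 361 CPM in the aged libraries, higher in each aged library than in any young library. Of the 9 genes, edgeR's test called 0 of them, with 0 lower and 1 higher at an unadjusted p under 0.05, and DESeq2 called 0, and the median log2 fold change was 0.23. Stxbp6, a syntaxin-binding protein and the most abundant marker at 15.2 FPKM, was at 51.6, 52.8 and 52.6 CPM in the young and 79.6, 74.8 and 77.4 CPM in the aged libraries. Each aged value was higher, and the adjusted p of 0.0146 came with a log2 fold change of 0.56, just under the fold limit. Markers of CA1 pyramidal neurons had a median of 0.19. Of the 6 hilar mossy cell markers, edgeR's test called 0 of them, with 2 lower and 1 higher at an unadjusted p under 0.05, and DESeq2 called 0, and 1 was higher and 1 lower without overlap. Their median of -0.29 was -0.18 with the length trend removed, and their sum of 136, 122 and 129 CPM in the young and 111, 105 and 152 CPM in the aged libraries overlapped between the ages. Summed CA1 markers were at 681, 669.8 and 554 CPM in the young and 753, 759 and 611 CPM in the aged libraries, which overlapped. General markers of glutamatergic neurons summed to 6719, 8095 and 8055 CPM in the young and 7864, 8125 and 5989.6 CPM in the aged libraries, again with overlap, and their median of 0.021 depended on single mice and scaling. Nrn1, an activity-dependent growth factor of these neurons, was at 174, 173 and 159.9 CPM in the young and 232, 208 and 191 CPM in the aged libraries. It was higher in 3 of 3 aged libraries (log2 fold change 0.31, adjusted p 0.0949). The median of dentate granule neurons was 0.52 and 0.14 without young 1 and young 3, that of CA1 pyramidal neurons was 0.0076 without young 3, and that of hilar mossy cells was -0.12, -0.037 and -0.59 without young 1, aged 4 and aged 6, and 0.0028 on log2(FPKM + 0.1) and 0.0059 on log2(FPKM + 1). The median of glutamatergic neurons was -0.051, 0.069, 0.033, -0.078, -0.061 and 0.17 without young 1, young 2, young 3, aged 4, aged 5 and aged 6, and -0.013 by library totals, -0.017 on log2(FPKM + 0.1) and -0.017 on log2(FPKM + 1).

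Of 16 markers of inhibitory interneurons, edgeR's test called 0 of them, with 0 lower and 4 higher at an unadjusted p under 0.05, and DESeq2 called 0. Their median log2 fold change was 0.11, or 0.17 with the length trend removed. Their summed level was 1906, 2124 and 2360.1 CPM in the young and 2364, 2388 and 2192 CPM in the aged libraries. Of 15 tested GABA-A receptor subunits, 1, Gabra2, was downregulated, and 3 were higher without overlap. The median of the subunits was 0.21, or 0.16 with the length trend removed. The median of inhibitory interneurons was 0.065, 0.22 and 0.052 without young 1, young 3 and aged 5, and that of GABA-A receptors was 0.023 and 0.14 without young 3 and aged 6.

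Of 20 presynaptic genes, 1 was upregulated, and 6 were higher and 0 lower without overlap (median 0.15, 0.11 with the length trend removed). Syn3, a synapsin of the vesicle reserve pool, was at 28.9, 21.5 and 30.1 CPM in the young and 46.6, 46.7 and 45.1 CPM in the aged libraries. Here the ages did not overlap and Syn3 was upregulated (log2 fold change 0.78 ± 0.12 (SE), adjusted p 0.0462). Of 20 postsynaptic genes, edgeR's test called 0 of them, with 0 lower and 1 higher at an unadjusted p under 0.05, and DESeq2 called 0. Of 81 tested potassium channel genes, edgeR's test called 0 of them, with 2 lower and 23 higher at an unadjusted p under 0.05, and DESeq2 called 2, while 18 were higher and 2 lower without overlap (median 0.13, 0.11 with the trend removed). For 36 voltage-gated sodium and calcium channel genes the median was 0.12, and 0.056 with the trend removed. In fits of 5 mice, Syn3 was called only without young 1. Syn3 was no DEG with the length trend removed (log2 fold change 0.63, adjusted p 0.0594). The median of presynaptic proteins was 0.10 without aged 4, and 0.10 on log2(FPKM + 1), and that of voltage-gated sodium and calcium channels was 0.074 on log2(FPKM + 1).

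Of 20 neuropeptide and granin genes, edgeR's test called 0 of them, with 2 lower and 4 higher at an unadjusted p under 0.05, and DESeq2 called 2. Adcyap1, the peptide PACAP, was at 9.001, 8.68 and 9.42 CPM in the young and 15.5, 16.9 and 12.5 CPM in the aged libraries. The ages were apart, with an adjusted p of 0.0557 by edgeR and 4.71e-04 by DESeq2.

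Clustered protocadherins, cell-surface proteins by which neurons recognise their own branches, supplied 6 of the 16 upregulated genes. Members of a cluster lie side by side on one chromosome and share near-identical exons, so reads may have been divided wrongly between them, and the values of single members are uncertain. Summed over the beta cluster the level was 104, 92.8 and 113 CPM in the young and 145, 147 and 142 CPM in the aged libraries, higher in every aged library than in any young one. Of 21 tested beta genes, 3 were upregulated by edgeR and 5 by DESeq2, 13 were higher and 0 lower without overlap, and the median log2 fold change was 0.57 (0.51 with the length trend removed). Pcdhb9, the most abundant beta member at 4.49 FPKM, was at 9.12, 8.05 and 8.898 CPM in the young and 17.5, 18.6 and 18.6 CPM in the aged libraries. Aged values were all above the young range and Pcdhb9 was upregulated (log2 fold change 1.07 ± 0.091 (SE), adjusted p 0.00643). Pcdhb3, a neighbour in the cluster, was at 5.26, 5.07 and 6.01 CPM in the young and 11.4, 10.6 and 10.5 CPM in the aged libraries. No overlap was seen and Pcdhb3 was upregulated (log2 fold change 0.99 ± 0.11 (SE), adjusted p 0.0267). In the gamma cluster, 2 of 22 genes were upregulated by edgeR and 4 by DESeq2, 14 were higher and 1 lower without overlap, and the median was 0.35 (0.30 with the length trend removed). Pcdhga8, a member with its own first exon joined to shared ones, was at 17.7, 19.4 and 19.1 CPM in the young and 31.4, 33.1 and 33.4 CPM in the aged libraries. Each aged value was above the young ones and Pcdhga8 was upregulated (log2 fold change 0.80 ± 0.075 (SE), adjusted p 0.0110). Pcdhga7, built in the same way, was at 24.3, 23.7 and 26.9 CPM in the young and 36.005, 36.7 and 41.9 CPM in the aged libraries. It was upregulated (log2 fold change 0.61 ± 0.089 (SE), adjusted p 0.0400) without overlap. Pcdhgc5, a C-type member and the most abundant of its cluster at 45.8 FPKM, was at 182, 211 and 234 CPM in the young and 236, 219 and 197 CPM in the aged libraries. The ages of Pcdhgc5 overlapped (log2 fold change 0.055 ± 0.11 (SE), adjusted p 0.799). In the alpha cluster, 1 of 14 genes was upregulated by edgeR and 2 by DESeq2, 5 were higher and 0 lower without overlap, and the median was 0.28 (0.21 with the length trend removed). Pcdha12, an alpha member, was at 12.5, 12.1 and 11.7 CPM in the young and 20.7, 19.9 and 19.9 CPM in the aged libraries. These ages were apart and Pcdha12 was upregulated (log2 fold change 0.74 ± 0.079 (SE), adjusted p 0.0187). Summed levels were 151, 159.5 and 172 CPM in the young and 207, 196 and 195 CPM in the aged libraries for the alpha cluster and 775, 851 and 865 CPM in the young and 975, 926 and 933 CPM in the aged libraries for the gamma cluster. In the hypothalamus the medians were 0.26 for alpha, 0.45 for beta and 0.36 for gamma genes. When single mice were left out, Pcdhb9, Pcdhb3 and Pcdhga8 were called except without young 2 or aged 4, Pcdha12 only without young 1, aged 5 or aged 6, and Pcdhga7 never. Pcdhga7 was no DEG with the length trend removed (log2 fold change 0.56, adjusted p 0.0514). The median of protocadherin beta cluster was 0.27 on log2(FPKM + 1), and that of protocadherin alpha cluster was 0.12 on log2(FPKM + 1).

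Immune genes of antigen presentation and complement included 2 of the upregulated genes. Of 27 general markers of astrocytes and 33 of microglia none was a DEG, near the share of 0.290% over all genes. The difference between these groups was not tested. C4b, the complement component that tags synapses and debris, was at 43.4, 43.6 and 31.1 CPM in the young and 101, 82.8 and 113 CPM in the aged libraries. All aged libraries were above the young ones and C4b was upregulated (log2 fold change 1.33 ± 0.16 (SE), adjusted p 0.0271). Its near-identical copy C4a shares reads with it, so the value stands for the pair. Of 26 tested complement genes, 1 was upregulated by edgeR, and DESeq2 called 2 higher and 1 lower. Without overlap, 5 were higher and 5 lower, beside 14.6% and 14.0% of all genes. The 28 listed genes summed to 1512, 1681 and 1481 CPM in the young and 1428, 1408 and 1470 CPM in the aged libraries. All aged sums were lower. Most of each sum was the single gene Clu, given below, so the sums do not show the direction of the other genes. The median log2 fold change was -0.041, or 0.030 with the length trend removed. Without young 1, aged 4 and aged 5 this median was -0.086, -0.0054 and -0.082. C3, the component on which the complement pathways converge, was at 2.45, 1.02 and 0.401 CPM in the young and 5.31, 2.62 and 7.798 CPM in the aged libraries. The ages did not overlap, although young mouse 1 came close to aged mouse 5 (log2 fold change 2.01, adjusted p 0.106 by edgeR and 0.00742 by DESeq2). Clu, the chaperone clusterin and the most abundant member at 577 FPKM, was at 1060.2, 1201 and 1029.9 CPM in the young and 944, 918 and 951 CPM in the aged libraries. Clu was lower in all aged libraries with an adjusted p of 0.142. With 1 mouse left out, C4b was called except without young 2 or aged 4.

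H2-Aa, the alpha chain of MHC class II on antigen-presenting cells, was at 1.32, 1.02 and 0.962 CPM in the young and 3.75, 2.54 and 3.499 CPM in the aged libraries. No young value reached the aged range, and H2-Aa was upregulated (log2 fold change 1.56 ± 0.24 (SE), adjusted p 0.0454). Cd74, the chain that guards the class II groove, was at 5.22, 3.42 and 4.05 CPM in the young and 7.97, 10.9 and 12.1 CPM in the aged libraries. The ages were apart, with an adjusted p of 0.0525 by edgeR and 1.03e-05 by DESeq2. The 11 listed class II genes summed to 77.5, 92.01 and 92.6 CPM in the young and 106, 101 and 109.5 CPM in the aged libraries, and the 10 tested had a median log2 fold change of 0.41 (0.48 with the length trend removed). Of 21 tested genes of MHC class I presentation, edgeR's test called 0 of them, with 2 lower and 7 higher at an unadjusted p under 0.05, and DESeq2 called 0, and 6 were higher and 2 lower without overlap. H2-T22, a nonclassical class I chain, was at 18.003, 19.96 and 17.7 CPM in the young and 24.99, 23.8 and 21.99 CPM in the aged libraries. Each of the aged values was higher (log2 fold change 0.35, adjusted p 0.0882). The class I median was 0.084, or 0.19 with the trend removed. An interferon-stimulated response element of the form TTCNNTTTC was present in 5 of 19 class I promoters (26.3%) and in 2317 of 27025 promoters of all genes (8.6%). The promoter of H2-T22 held 1 such site at chr17:36042693-36042992 (minus strand, GRCm38.p6), in capitals in its sequence. Those of H2-D1 and Psmb8, taken by the same rule, held 0. In fits of 5 mice, H2-Aa was called only without young 1 or aged 5. H2-Aa was no DEG with the length trend removed (log2 fold change 1.71, adjusted p 0.0514). The median of MHC class II presentation was 0.71 and 0.24 without young 1 and aged 6, and that of MHC class I presentation was 0.21 and 0.20 without young 3 and aged 6, and 0.051 by library totals and 0.035 on log2(FPKM + 1).

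H2-T22 promoter: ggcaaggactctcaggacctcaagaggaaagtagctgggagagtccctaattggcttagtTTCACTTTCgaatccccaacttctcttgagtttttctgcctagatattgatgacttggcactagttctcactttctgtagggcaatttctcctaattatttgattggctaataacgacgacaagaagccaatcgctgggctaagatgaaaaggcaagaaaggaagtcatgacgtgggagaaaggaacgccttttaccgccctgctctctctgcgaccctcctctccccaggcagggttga

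Of 45 tested interferon response genes, edgeR's test called 0 of them, with 2 lower and 8 higher at an unadjusted p under 0.05, and DESeq2 called 1, with 11 higher and 5 lower without overlap. The 47 listed genes summed to 309, 308 and 313 CPM in the young and 333, 331 and 329 CPM in the aged libraries, without overlap, and the median of those tested was 0.072 in the hippocampus and 0.35 in the hypothalamus, a difference that was tested only gene by gene. Of 24 tested genes of cytokines, chemokines and NF-kB, edgeR's test called 0 of them, with 1 lower and 2 higher at an unadjusted p under 0.05, and DESeq2 called 2. Il33, a cytokine stored in glial nuclei, was at 55.4, 51.9 and 49.4 CPM in the young and 92.98, 65.4 and 95.4 CPM in the aged libraries. In aged mice all values were higher, with an adjusted p of 0.0670 by edgeR and 2.72e-04 by DESeq2. Of 21 lymphocyte genes, 6 were tested and Gzmb and Ighm were not listed. Of the 6, edgeR's test called 0 of them, with 0 lower and 2 higher at an unadjusted p under 0.05, and DESeq2 called 2, and 3 were higher and 0 lower without overlap. The summed level of the 19 listed lymphocyte genes was 8.65, 19.3 and 26.8 CPM in the young and 9.997, 17.7 and 12.6 CPM in the aged libraries. Cd4, the most abundant at 3.797 FPKM, followed no age, with 5.61, 15.6 and 23.01 CPM in young and 4.26, 12.7 and 7.84 CPM in aged libraries. Cd4 was a large part of each lymphocyte sum, so these sums do not show the direction of the other genes. Among 19 tested coagulation and kinin genes the only DEG was Bdkrb2, a bradykinin receptor with 0, 1 and 2 counts in the young libraries (adjusted p 0.0316), too few to be tested where 10 were required in every library. When single mice were left out, Bdkrb2 was called only without young 1. The median of interferon response was 0.11 and 0.030 without young 3 and aged 4, and 0.040 by library totals, 0.039 on log2(FPKM + 0.1) and 0.023 on log2(FPKM + 1).

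The 33 microglial markers summed to 919, 1099 and 1052 CPM in the young and 969.7, 964 and 945 CPM in the aged libraries, which overlapped, and their median log2 fold change of -0.11 was -0.018 with the length trend removed. Of these genes, edgeR's test called 0 of them, with 6 lower and 2 higher at an unadjusted p under 0.05, and DESeq2 called 0. Mpeg1, a pore-forming protein of phagocytes, was at 24.8, 28.4 and 29.8 CPM in the young and 35.4, 32.8 and 34.99 CPM in the aged libraries. In aged mice the values were all higher (log2 fold change 0.31, adjusted p 0.0987). Of 28 tested genes of disease-associated microglia, edgeR's test called 0 of them, with 3 lower and 4 higher at an unadjusted p under 0.05, and DESeq2 called 1. Gpnmb, a glycoprotein of lipid-laden phagocytes, was at 3.702, 2.48 and 1.88 CPM in the young and 5.97, 5.95 and 5.29 CPM in the aged libraries. The ages did not overlap, and the adjusted p was 0.0743 by edgeR and 0.00306 by DESeq2. Itgax, the integrin chain CD11c, was at 0.156, 0.236 and 0.281 CPM in the young and 0.781, 0.476 and 0.723 CPM in the aged libraries. Each aged value was above the young range (log2 fold change 1.54, adjusted p 0.0893). The young levels were too low for Itgax to be tested where 10 counts were required in every library. With that filter 25 genes of the list remained, and their median log2 fold change was 0.028 beside 0.077 over the 28. Of 9 tested perivascular macrophage genes, 8 had negative log2 fold changes (median -0.21). The 11 listed genes overlapped in their sum of 84.3, 75.8 and 62.6 CPM in the young and 59.98, 65.5 and 68.4 CPM in the aged libraries. The median of microglia was -0.059 and -0.059 without young 2 and young 3, and that of perivascular macrophages was -0.10 and -0.48 without young 1 and young 3, and -0.13 on log2(FPKM + 1).

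Astrocyte markers summed to 12149, 12542 and 11520.1 CPM in the young and 12232, 11980.3 and 11936 CPM in the aged libraries, with overlap. Their median was -0.081, or -0.045 with the length trend removed. Of the 27 genes, edgeR's test called 0 of them, with 7 lower and 2 higher at an unadjusted p under 0.05, and DESeq2 called 0. Ntsr2, a neurotensin receptor of astrocytes, was at 161, 167 and 153 CPM in the young and 122.8, 116 and 123.1 CPM in the aged libraries. The ages were apart with an adjusted p of 0.0454, but the log2 fold change of -0.41 was under the fold limit. Apoe, the lipid carrier and the most abundant marker at 1203 FPKM, was at 1637, 1554 and 1329 CPM in the young and 1409, 1390.4 and 1473 CPM in the aged libraries. The ages of Apoe overlapped. Among 26 tested genes of reactive astrocytes the only DEG was C4b, 4 were higher and 1 lower without overlap, and the median was 0.23. Gfap, the filament that marks reactive astrocytes, was at 323, 252 and 167 CPM in the young and 292, 241 and 311 CPM in the aged libraries. Its ages overlapped (log2 fold change 0.19 ± 0.21 (SE), adjusted p 0.650). The median of astrocytes was -0.048, -0.046, -0.048 and -0.053 without young 1, young 2, aged 5 and aged 6, and that of reactive astrocytes was 0.11 without young 3, and 0.13 on log2(FPKM + 1).

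In the lists of genes of vessels, matrix, ventricles, blood and neighbouring regions, the DEGs were the endothelial Itm2a and Apcdd1. Of 22 endothelial genes, 2 were downregulated by edgeR and by DESeq2, 11 were lower and 1 higher without overlap, and the median log2 fold change was -0.23 (-0.19 with the length trend removed). The endothelial sum was 942, 1029.5 and 964 CPM in the young and 848, 882 and 847 CPM in the aged libraries, without overlap. Itm2a, a membrane protein of brain endothelium, was at 63.2, 67.5 and 60.6 CPM in the young and 33.8, 41.03 and 41.4 CPM in the aged libraries. Every aged value was lower and Itm2a was downregulated (log2 fold change -0.72 ± 0.091 (SE), adjusted p 0.0316). Apcdd1, a Wnt inhibitor of the blood-brain barrier, was at 35.8, 34.8 and 31.6 CPM in the young and 21.2, 23.1 and 22.97 CPM in the aged libraries. It was downregulated (log2 fold change -0.60 ± 0.079 (SE), adjusted p 0.0317) without overlap. Slc2a1, the glucose carrier of the barrier and the most abundant member at 87.4 FPKM, was at 208, 242 and 234 CPM in the young and 225, 214 and 192 CPM in the aged libraries. The ages of Slc2a1 overlapped. Of 43 tested collagens, edgeR's test called 0 of them, with 7 lower and 0 higher at an unadjusted p under 0.05, and DESeq2 called 3, and the median was -0.13 with all genes as they were and -0.28 with the length trend removed. Col1a1, the main fibrillar collagen of fibroblasts, was at 32.7, 30.3 and 16.3 CPM in the young and 13.5, 14.2 and 14.9 CPM in the aged libraries. Its aged values were all lower, with an adjusted p of 0.0895 by edgeR and 0.00425 by DESeq2. Of 23 fibroblast and meninges markers, edgeR called 0, with 5 lower and 0 higher at an unadjusted p under 0.05, and DESeq2 called 4 lower. They summed to 1613, 1280 and 770 CPM in the young and 937, 1147 and 1166 CPM in the aged libraries, which overlapped. Their median was -0.11 (-0.068 with the length trend removed), and 0.067 and -0.31 without young 1 and young 3. In the hypothalamus it was -0.61. With 1 mouse left out, Itm2a was called only without young 1 or aged 5, and Apcdd1 never. Apcdd1 was no DEG with the length trend removed (log2 fold change -0.58, adjusted p 0.0360). The median of collagens was -0.061, -0.085 and -0.25 without young 1, aged 4 and aged 6.

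The 7 listed blood genes summed to 351, 769 and 417 CPM in the young and 272, 331 and 256 CPM in the aged libraries, with young mouse 2 highest and no overlap between the ages. All 5 tested blood genes were lower without overlap (median -0.88), though edgeR called 0 of them, with 5 at an unadjusted p under 0.05, and DESeq2 called 1. Hbb-bs, a beta globin and the most abundant at 314 FPKM, was at 158, 353 and 192 CPM in the young and 111, 155 and 103 CPM in the aged libraries. The ages did not overlap, its copies share reads, and its adjusted p was 0.125. Choroid plexus genes summed to 2577, 2849 and 1878 CPM in the young and 1048, 1925 and 3035 CPM in the aged libraries, an overlap in which aged mouse 4 was lowest and aged mouse 6 highest, and their median was -0.29. Ttr, the thyroxine carrier secreted by the choroid plexus, was at 2127, 2438 and 1582 CPM in the young and 853, 1632 and 2545 CPM in the aged libraries. Values of Ttr overlapped (log2 fold change -0.29 ± 0.35 (SE), adjusted p 0.662). Ependymal and ciliated cell genes had a median of -0.16, or 0.055 with the length trend removed, and a sum of 89.4, 65.4 and 63.5 CPM in the young and 69.6, 53.8 and 83.3 CPM in the aged libraries. Dnah12 of that list was not listed in the files. The median of blood was -0.42 without young 2, that of choroid plexus epithelium was 0.029 and -0.75 without aged 4 and aged 6, and that of ependymal and ciliated cells was 0.15, 0.017 and -0.28 without young 1, aged 5 and aged 6.

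Markers of neighbouring regions varied widely between mice of the same age. The 6 cholinergic septal genes summed to 23.8, 25.9 and 40.9 CPM in the young and 12.5, 17.2 and 19.4 CPM in the aged libraries, lower in all aged libraries, and had a median of -0.997. Of them, edgeR called 0, with 4 lower and 0 higher at an unadjusted p under 0.05, and DESeq2 called 3. Lhx8, a transcription factor of forebrain cholinergic neurons, was at 2.38, 2.59 and 3.69 CPM in the young and 0.586, 1.19 and 1.07 CPM in the aged libraries. The ages of Lhx8 were apart (log2 fold change -1.60, adjusted p 0.0665). Striatal genes summed to 905, 1530.0 and 2463 CPM in the young and 701, 1432 and 1061 CPM in the aged libraries, highest in young mouse 3 and lowest in aged mouse 4, and had a median of -0.59. Ppp1r1b, the dopamine-regulated phosphatase inhibitor of striatal neurons, was at 265, 482 and 710.1 CPM in the young and 194, 381 and 278 CPM in the aged libraries. It overlapped between the ages (adjusted p 0.242). Thalamic genes summed to 597, 327 and 394 CPM in the young and 513, 132 and 804 CPM in the aged libraries, lowest in aged mouse 5 and highest in aged mouse 6. Prkcd, a kinase of thalamic relay neurons, was at 239, 125 and 152 CPM in the young and 203, 36.6 and 293 CPM in the aged libraries. Of 8 tested hypothalamic genes, edgeR's test called 0 of them, with 4 lower and 0 higher at an unadjusted p under 0.05, and DESeq2 called 0, and 4 were lower and 0 higher without overlap (median -0.59). The 13 listed hypothalamic genes summed to 30.2, 25.1 and 17.1 CPM in the young and 18.98, 15.1 and 17.1 CPM in the aged libraries, with overlap. Whether age or the cut of the tissue gave the septal, striatal and hypothalamic differences was not tested. The median of cholinergic septum was -0.52 on log2(FPKM + 1), that of striatum was -0.90, -0.19, -0.38 and -0.89 without young 1, young 3, aged 4 and aged 5, and that of hypothalamus was -0.39 without aged 5, and -0.30 on log2(FPKM + 1).

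Of the genes that the circadian clock drives through E-boxes, Dbp and Ciart were downregulated at 15 months, and no gene that peaks opposite to them was a DEG. The labels do not give the hour at which each mouse was killed, so age and time of day cannot be told apart for these genes. Dbp, a transcription factor that carries clock time to its targets, was at 119.9, 148 and 175 CPM in the young and 60.5, 60.5 and 67.5 CPM in the aged libraries. All aged values were well below the lowest young value, that of young mouse 1, and Dbp was downregulated (log2 fold change -1.23 ± 0.13 (SE), adjusted p 0.0187). Ciart, a repressor within the clock, was at 22.95, 34.3 and 32.8 CPM in the young and 15.4, 15.6 and 14.04 CPM in the aged libraries. The ages were apart and Ciart was downregulated (log2 fold change -1.0005 ± 0.15 (SE), adjusted p 0.0446). Bhlhe40, a clock repressor that also answers activity and hypoxia, was at 95.1, 101 and 106 CPM in the young and 137, 120.3 and 132 CPM in the aged libraries. It was the 1 member higher in all aged libraries (log2 fold change 0.36, adjusted p 0.0670). Of the 15 E-box driven genes, 2 were downregulated by edgeR and by DESeq2, 8 were lower and 1 higher without overlap, and the median was -0.19, with 6 log2 fold changes above 0. The E-box driven genes summed to 1701, 1945 and 2074 CPM in the young and 1719.6, 1679.9 and 1663 CPM in the aged libraries, which overlapped. Arntl, the activator of the clock that peaks opposite to Dbp, was at 23.6, 25.1 and 30.8 CPM in the young and 39.3, 39.8 and 35.3 CPM in the aged libraries. The aged values were all higher, with an adjusted p of 0.0699 by edgeR and 0.00265 by DESeq2. Of the 5 antiphase genes, edgeR's test called 0 of them, with 0 lower and 3 higher at an unadjusted p under 0.05, and DESeq2 called 0, the median was 0.28, and their sum of 185, 181 and 208 CPM in the young and 240.5, 232 and 226 CPM in the aged libraries was higher in every aged library. With the length trend removed, the medians of these lists were -0.20 and 0.17. In fits of 5 mice, Dbp was called except without young 2 or aged 4, and Ciart only without young 1. Ciart was no DEG with the length trend removed (log2 fold change -0.89, adjusted p 0.0635).

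The E-box CACGTG, the site of the clock activators, was found in 4 of 11 promoters of the E-box driven list (36.4%) and in 1957 of 27025 promoters of all genes (7.2%). The 300 bases listed for Dbp held 0 such sites, those of Ciart 3 and those of Per1 1. The promoter of Ciart is at chr3:95882179-95882478 on the minus strand and that of Per1, the first of those listed, at chr11:69098699-69098998 on the plus strand of GRCm38.p6.

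Ciart promoter: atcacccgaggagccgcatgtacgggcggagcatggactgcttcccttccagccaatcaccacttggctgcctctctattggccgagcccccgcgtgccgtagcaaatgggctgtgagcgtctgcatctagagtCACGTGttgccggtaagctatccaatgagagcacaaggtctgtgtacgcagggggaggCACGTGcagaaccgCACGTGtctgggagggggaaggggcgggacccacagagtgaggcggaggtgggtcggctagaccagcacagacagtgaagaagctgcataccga

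Per1 promoter: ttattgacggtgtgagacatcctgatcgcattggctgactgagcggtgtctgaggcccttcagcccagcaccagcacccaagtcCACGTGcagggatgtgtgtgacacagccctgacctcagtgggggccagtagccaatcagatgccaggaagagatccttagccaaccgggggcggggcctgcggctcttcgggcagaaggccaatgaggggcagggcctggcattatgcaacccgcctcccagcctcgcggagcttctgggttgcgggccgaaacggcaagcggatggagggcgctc

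Immediate early genes, which neurons switch on within minutes of firing, held no DEG, near the share of 0.290% over all genes. Of 32 genes, edgeR's test called 0 of them, with 10 lower and 2 higher at an unadjusted p under 0.05, and DESeq2 called 2, while 9 were lower and 2 higher without overlap (median -0.15). Junb, a subunit of the AP-1 factor, was at 51.8, 59.01 and 54.8 CPM in the young and 38.6, 43.3 and 37.3 CPM in the aged libraries. The aged values were all lower, with an adjusted p of 0.0551 by edgeR and 5.20e-04 by DESeq2. Among 25 glucocorticoid-responsive genes, 2 were upregulated by edgeR, DESeq2 called 3 higher, and 7 were lower and 4 higher without overlap. Xdh, which breaks down purines to uric acid, was at 15.9, 20.3 and 21.04 CPM in the young and 34.9, 38.4 and 34.3 CPM in the aged libraries. The ages did not overlap and Xdh was upregulated (log2 fold change 0.91 ± 0.11 (SE), adjusted p 0.0316). Plin4, a coat protein of lipid droplets, was at 56.4, 60.3 and 42.97 CPM in the young and 97.98, 85.5 and 104 CPM in the aged libraries. It was upregulated (log2 fold change 0.85 ± 0.13 (SE), adjusted p 0.0457) without overlap. Tsc22d3, the classic glucocorticoid target GILZ, was at 139, 127 and 137 CPM in the young and 111, 96.8 and 105 CPM in the aged libraries. All aged values were lower here (log2 fold change -0.37, adjusted p 0.0665), and Tsc22d3 was no DEG. When single mice were left out, Xdh was called only without young 1, and Plin4 never. Plin4 was no DEG with the length trend removed (log2 fold change 0.75, adjusted p 0.0687). The median of immediate early genes was -0.092 without young 2.

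DEGs numbered 0 of 25 genes of cholesterol synthesis, 1 of 26 in the glycine, serine and creatine list and 1 of 28 antioxidant genes. The share over all genes was 0.290%. Most genes of cholesterol synthesis and most antioxidant genes had negative log2 fold changes. Of 25 genes of cholesterol synthesis, edgeR's test called 0 of them, with 13 lower and 1 higher at an unadjusted p under 0.05, and DESeq2 called 0, and 14 were lower and 2 higher without overlap. The sum of these genes was 1428, 1444 and 1492 CPM in the young and 1355, 1409 and 1324 CPM in the aged libraries, lower in all aged libraries, with a median of -0.18 (-0.16 with the length trend removed). Idi1, which makes the allylic building block of sterols, was at 55.8, 51.2 and 55.9 CPM in the young and 40.3, 42.8 and 41.04 CPM in the aged libraries. No aged value reached the young range (log2 fold change -0.39, adjusted p 0.0531). In the glycine, serine and creatine list the only DEG was Gamt, and 8 of 26 genes were lower and 3 higher without overlap. The median was -0.12. The median of glycine, serine and creatine metabolism was -0.058 and -0.057 without young 2 and aged 4.

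Of 28 antioxidant genes, Nnt was the only DEG, 10 were lower and 2 higher without overlap, and the median was -0.16 (-0.061 with the length trend removed). Atf4, the transcription factor of the integrated stress response, was at 84.1, 96.6 and 91.5 CPM in the young and 134, 129.5 and 125 CPM in the aged libraries. All aged libraries were higher with an adjusted p of 0.0320, but the log2 fold change of 0.51 was under the fold limit. Of 28 chaperone and unfolded protein genes, edgeR's test called 0 of them, with 1 lower and 7 higher at an unadjusted p under 0.05, and DESeq2 called 1. Of 7 tested senescence genes, edgeR's test called 0 of them, with 1 lower and 1 higher at an unadjusted p under 0.05, and DESeq2 called 0. Cdkn1a, the cell-cycle inhibitor p21, was at 24.6, 32.9 and 29.9 CPM in the young and 48.3, 40.2 and 31.7 CPM in the aged libraries. Young mouse 2 was above aged mouse 6, so the ages overlapped (log2 fold change 0.46 ± 0.16 (SE), adjusted p 0.153). The median of antioxidant enzymes was -0.11 without aged 4.

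The lists of ribosomal, respiratory chain and proteasome genes held no DEG, near the share of 0.290% over all genes. The median log2 fold change of 78 cytosolic ribosomal proteins was -0.15 and 0.030 with the trend removed, and that of 78 mitochondrial ones -0.094 and 0.044. For complex I it was -0.16 and 0.027, for respiratory complexes II to IV -0.13 and 0.021, for ATP synthase -0.18 and -0.027, and for the proteasome -0.080 and 0.037. In these 6 lists, of which all sums overlapped, edgeR and DESeq2 each called 0 genes, and the unadjusted p was under 0.05 for 13, 10, 10, 6, 5 and 7 of their genes in the order given. Summed ribosomal levels were 17578, 19049.7 and 17189 CPM in the young and 14821, 18803 and 14814 CPM in the aged libraries, where aged mouse 5 was within the young range. Rpl41, the shortest ribosomal protein and the most abundant at 1344 FPKM, was at 526, 653 and 621 CPM in the young and 397, 550.3 and 385 CPM in the aged libraries. It overlapped through aged mouse 5, the aged library with the smallest length trend. The median of cytosolic ribosomal proteins was -0.27 and -0.10 without aged 5 and aged 6, that of mitochondrial ribosomal proteins was -0.16 without aged 5, and that of respiratory complexes II to IV was -0.079, -0.23 and -0.080 without aged 4, aged 5 and aged 6. The median of ATP synthase was -0.27 without aged 5, and that of proteasome was -0.032 and -0.035 without young 1 and aged 6.

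**Figure D4:**
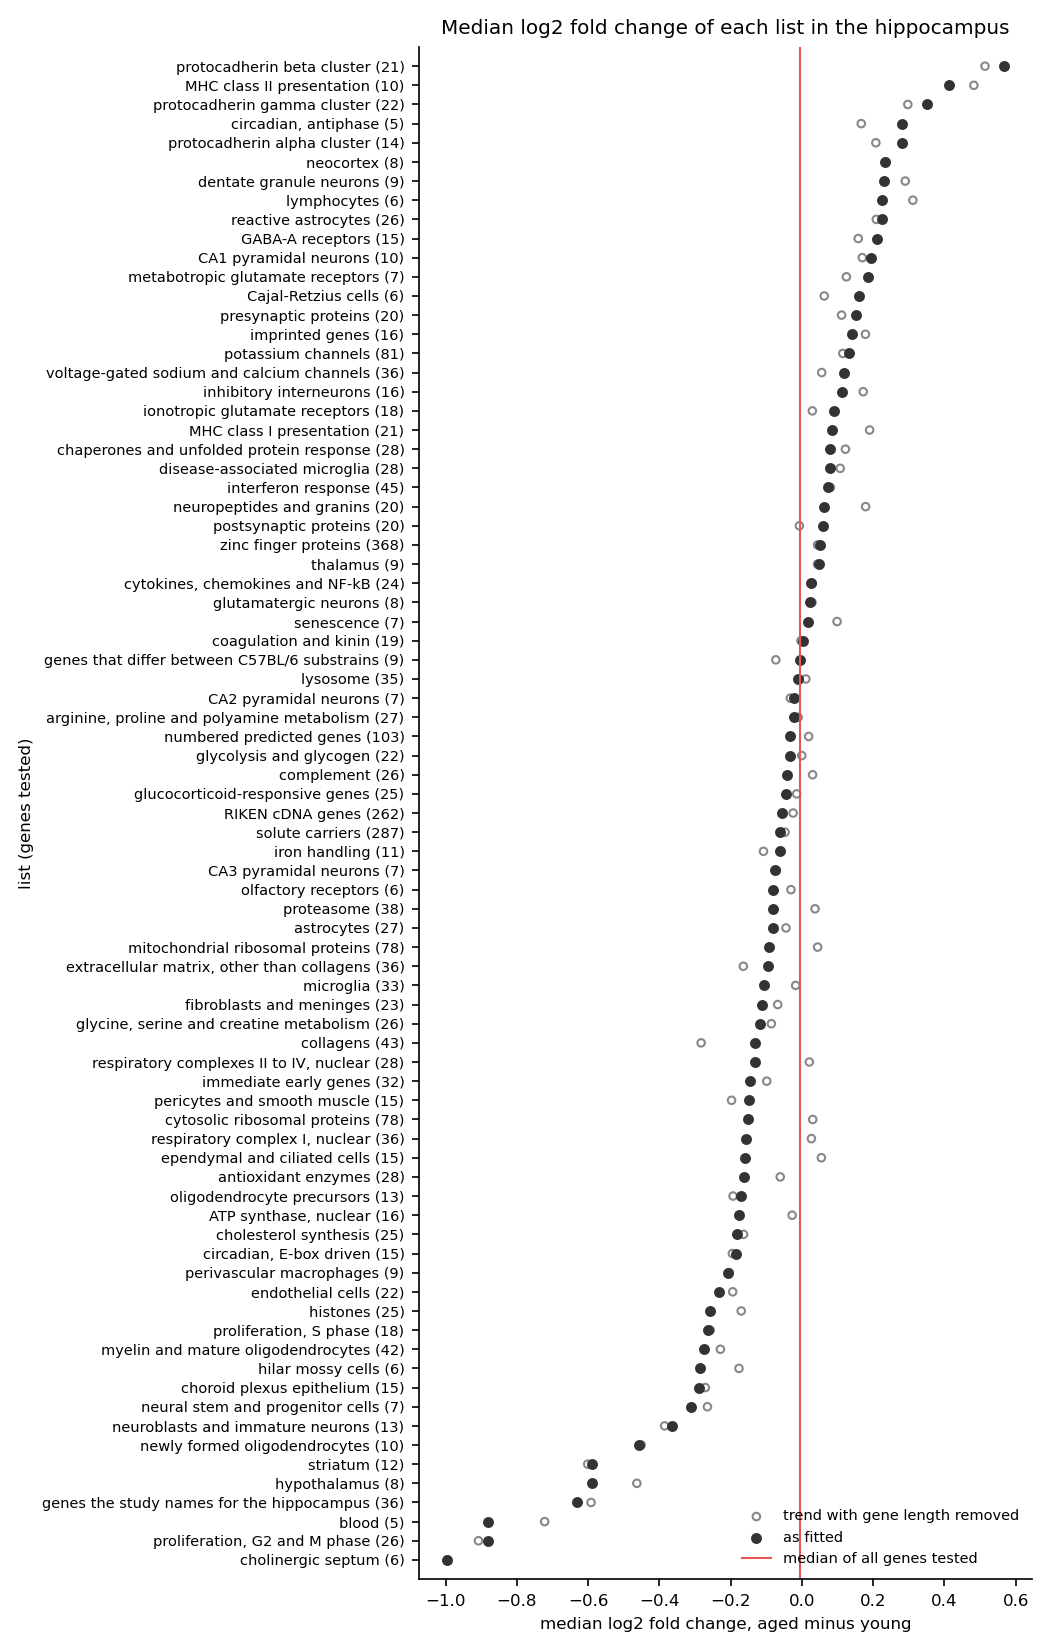
Median log2 fold change of each list with at least 5 tested genes (number in brackets), as fitted (filled) and with the trend with gene length removed (open), with the median of all genes tested at -0.0058 (red line). The protocadherin beta cluster is highest at 0.57 and the cholinergic septum lowest at -0.997.

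Among gene classes defined by name alone, histone genes had the lowest median. Of 25 tested histone genes, edgeR's test called 0 of them, with 11 lower and 2 higher at an unadjusted p under 0.05, and DESeq2 called 3, and 14 were lower and 2 higher without overlap (median -0.26, -0.17 with the length trend removed). H3f3a, the replacement histone and the most abundant member at 186 FPKM, was at 216, 210.1 and 204 CPM in the young and 151, 187 and 165 CPM in the aged libraries. Its ages were apart (log2 fold change -0.32, adjusted p 0.0930). Of 368 tested zinc finger genes, edgeR's test called 0 of them, with 15 lower and 33 higher at an unadjusted p under 0.05. DESeq2 called 5, and 57 were higher and 26 lower without overlap, beside 14.6% and 14.0% of all genes. Of 287 tested solute carriers, edgeR's test called 0 of them, with 40 lower and 26 higher at an unadjusted p under 0.05. DESeq2 called 5, and 50 were lower and 34 higher without overlap, beside 14.0% and 14.6% of all genes. Slc10a4, a vesicle protein of cholinergic and monoamine neurons, was at 5.81, 6.68 and 9.14 CPM in the young and 2.499, 2.896 and 3.499 CPM in the aged libraries. No overlap was seen (log2 fold change -1.28, adjusted p 0.0531). Cholinergic septal markers summed to 23.8, 25.9 and 40.9 CPM in the young and 12.5, 17.2 and 19.4 CPM in the aged libraries, likewise lower. Both were highest in young mouse 3, and whether the cut of the tissue gave these differences was not tested. Of 16 tested imprinted genes, 1 was downregulated and 4 were higher without overlap (median 0.14). Ndn, a growth-restraining MAGE protein expressed from the paternal copy, was at 269, 218 and 204 CPM in the young and 109, 114 and 142 CPM in the aged libraries. All aged values were lower and Ndn was downregulated (log2 fold change -0.92 ± 0.13 (SE), adjusted p 0.0400). By chromosome, medians ran from -0.047 on chromosome 19 to 0.055 on chromosome 18, where the protocadherin clusters lie and 6 of the 16 upregulated genes were found. Chromosome 17, with C4b, H2-Aa, Plin4 and Xdh, held 4 upregulated genes. With 1 mouse left out, Ndn was called only without young 1 or aged 6. Ndn was no DEG with the length trend removed (log2 fold change -0.83, adjusted p 0.0619). The median of imprinted genes was 0.086, 0.22 and 0.056 without young 3, aged 5 and aged 6, and 0.086 on log2(FPKM + 1).

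Of the 4 DEGs called in all fits without 1 mouse, 3 (Wdfy1, Nnt and Entpd4b) are genes at which C57BL/6 substrains are known to differ. The labels give C57BL/6J for all mice, and the methods name 2 suppliers without saying which mice came from which, so supplier and age cannot be told apart for these genes. Wdfy1, an endosomal adaptor (chromosome 1, 79702262 to 79776143, GRCm38), was at 52.5, 55.9 and 51.9 CPM in the young and 18.9, 20.1 and 20.7 CPM in the aged libraries. All young values were above 50 CPM and all aged values near 20, and Wdfy1 was downregulated (log2 fold change -1.42 ± 0.070 (SE), adjusted p 5.45e-04). Nnt, the mitochondrial transhydrogenase of which C57BL/6J carries a deletion (chromosome 13, 119335527 to 119409257), was at 47.2, 50.99 and 50.3 CPM in the young and 18.3, 21.5 and 19.6 CPM in the aged libraries. The ages were far apart and Nnt was downregulated (log2 fold change -1.32 ± 0.082 (SE), adjusted p 0.00160). Entpd4b, a nucleotidase of the Golgi with a near-identical copy, Entpd4 (chromosome 14, 69555401 to 69584940), was at 76.7, 88.1 and 85.2 CPM in the young and 176, 175 and 166 CPM in the aged libraries. Aged values were all about double the young ones, and Entpd4b was upregulated (log2 fold change 1.05 ± 0.071 (SE), adjusted p 0.00226), uncertain as reads may pass between the copies. Gabra2, a GABA-A receptor subunit with a known intronic deletion in C57BL/6J (chromosome 5, 70958392 to 71095849), was at 77.3, 60.8 and 55.3 CPM in the young and 29.5, 33.6 and 31.5 CPM in the aged libraries. No aged value reached the young range and Gabra2 was downregulated (log2 fold change -1.03 ± 0.12 (SE), adjusted p 0.0288). Of the 9 tested genes of this list, edgeR called 1 higher and 3 lower and DESeq2 2 higher and 3 lower. In the hypothalamus, Wdfy1 was at 77.3, 71.99 and 79.01 CPM in young and 23.6, 25.3 and 27.2 CPM in aged hypothalami. The same separation was seen for Nnt, at 50.5, 47.8 and 46.5 CPM in young and 20.5, 20.8 and 20.2 CPM in aged hypothalami. In fits of 5 mice, Gabra2 was called only without young 1, young 3 or aged 5.

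The study itself names 36 genes for the hippocampus, a list chosen on these very libraries and thus no independent evidence. All 36 were separated without overlap, 21 lower and 15 higher, and DESeq2 called all 36. By edgeR, 15 were DEGs, and the other 21 had adjusted p above 0.05. Pdlim2, an actin-linked regulator of NF-kB, was at 23.5, 22.6 and 21.5 CPM in the young and 8.43, 10.4 and 12.9 CPM in the aged libraries. The ages were apart and Pdlim2 was downregulated (log2 fold change -1.09 ± 0.15 (SE), adjusted p 0.0317). Rnf122, a ubiquitin ligase, was at 7.33, 7.39 and 7.86 CPM in the young and 3.397, 2.94 and 4.26 CPM in the aged libraries. All aged values were lower and Rnf122 was downregulated (log2 fold change -1.09 ± 0.16 (SE), adjusted p 0.0400). Abca8a, a lipid transporter of oligodendrocytes and vessels, was at 10.99, 9.19 and 8.22 CPM in the young and 28.8, 20.5 and 31.2 CPM in the aged libraries. Its aged values were all above the young range, and Abca8a was upregulated (log2 fold change 1.502 ± 0.18 (SE), adjusted p 0.0271). A few DEGs belonged to no list. Traip, a ubiquitin ligase of stalled replication forks, was at 24.6, 29.8 and 26.5 CPM in the young and 11.7, 11.7 and 12.02 CPM in the aged libraries. No overlap was seen and Traip was downregulated (log2 fold change -1.19 ± 0.094 (SE), adjusted p 0.00431). The other 6 given here were chosen after their values were seen. Park2, the ubiquitin ligase parkin, was at 24.8, 21.8 and 22.3 CPM in the young and 14.2, 14.7 and 16.01 CPM in the aged libraries. Its ages did not overlap and Park2 was downregulated (log2 fold change -0.62 ± 0.090 (SE), adjusted p 0.0400). Marcksl1, an actin-binding protein of growing neurons, was at 86.5, 100.4 and 76.5 CPM in the young and 50.7, 47.3 and 55.1 CPM in the aged libraries. The aged values were all lower, and Marcksl1 was downregulated (log2 fold change -0.78 ± 0.11 (SE), adjusted p 0.0320). Trim66, a chromatin reader, was at 31.6, 29.8 and 34.2 CPM in the young and 55.7, 43.6 and 52.3 CPM in the aged libraries. It was upregulated without overlap (log2 fold change 0.66 ± 0.10 (SE), adjusted p 0.0457). Pip5kl1, a lipid kinase relative, Thbs3, a matrix thrombospondin, and Mpzl1, an adhesion protein, were downregulated with log2 fold changes of -0.92, -0.61 and -0.59 and adjusted p of 0.0401, 0.0317 and 0.0317. When single mice were left out, Traip was called except without aged 4, Abca8a only without young 1, aged 5 or aged 6, Pdlim2 and Rnf122 only without young 1 or aged 6, Marcksl1 only without young 1 or young 3, Trim66 only without aged 5, Pip5kl1, Thbs3 and Mpzl1 only without young 1, and Park2 never. Park2, Marcksl1, Trim66, Pip5kl1 and Mpzl1 were no DEGs with the length trend removed (log2 fold change -0.55, -0.69, 0.503, -0.82 and -0.55, adjusted p 0.0619, 0.0510, 0.0687, 0.0611 and 0.0373).

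Beside the hippocampus, the hypothalamic libraries of the same study gave 108 of 14955 genes (0.722%) as DEGs. A test of the difference between the tissues called 0 of 15237 genes (0%) by edgeR, with 653 at an unadjusted p under 0.05, while DESeq2 called 3 (Stxbp6, Mpeg1 and Hs3st3a1, the last chosen after its values were seen), so no gene named here is said to differ between them by edgeR. Myelin and mature oligodendrocytes had a median log2 fold change of -0.28 (-0.47 without aged 6) in the hippocampus and -0.15 in the hypothalamus, and newly formed oligodendrocyte genes -0.46 and -0.35. Mog was at 149, 148 and 133 CPM in young and 74.6, 72.3 and 80.6 CPM in aged hypothalami. These hypothalamic ages did not overlap either, and the log2 fold change was -0.92 beside -0.96 in the hippocampus. Dbp was at 122, 131 and 114 CPM in young and 66.001, 57.3 and 58.03 CPM in aged hypothalami. The aged values were again all lower, with a log2 fold change of -1.02. H2-Aa was at 1.76, 2.73 and 1.14 CPM in young and 3.78, 1.85 and 0.973 CPM in aged hypothalami. Its hypothalamic ages overlapped, and the log2 fold change of 0.23 was no call, though the difference between tissues did not pass its test (adjusted p 0.999). Of the genes called by DESeq2's test of the difference, Stxbp6 was at 80.7, 76.3 and 74.7 CPM in young and 85.8, 86.2 and 90.1 CPM in aged hypothalami. The hypothalamic ages of Stxbp6 did not overlap, and the difference in log2 fold change was 0.37 (adjusted p 0.684 by edgeR and 0.0136 by DESeq2). Mpeg1 was at 17.97, 17.7 and 19.6 CPM in young and 36.98, 36.1 and 35.4 CPM in aged hypothalami. It was about double in aged hypothalami, and the difference was -0.67 (adjusted p 0.437 by edgeR and 0.00171 by DESeq2).

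**Figure D5:**
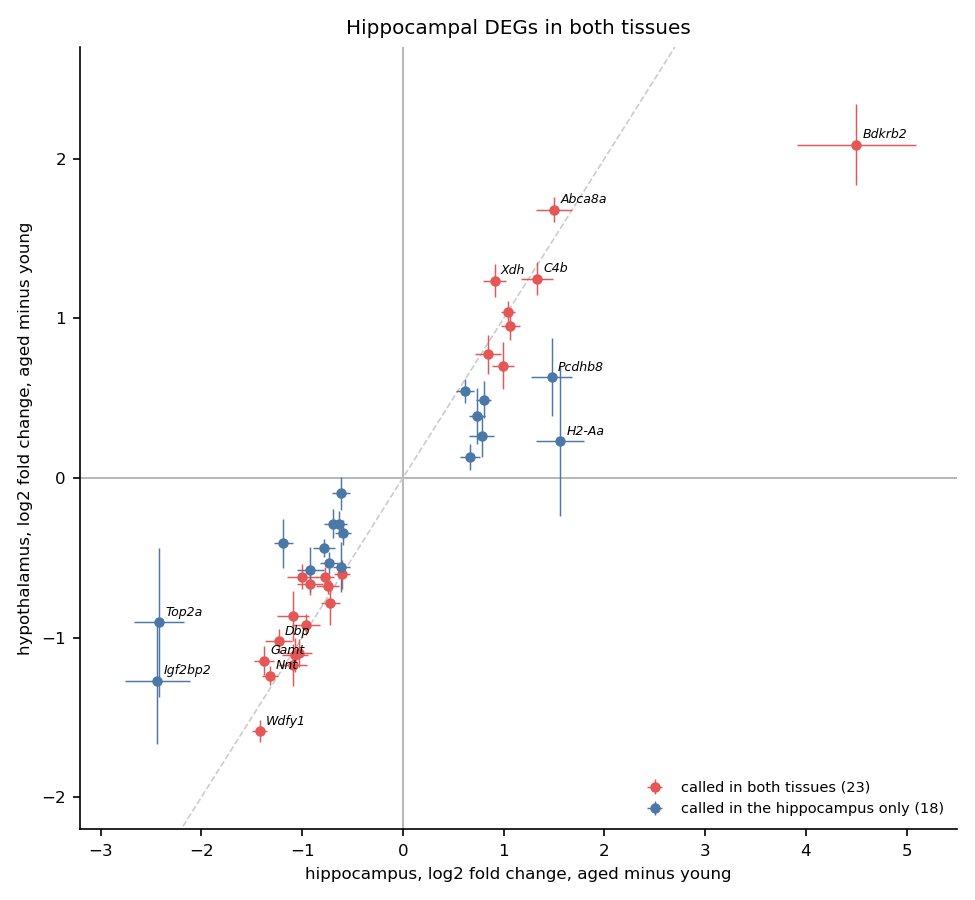
Log2 fold change (aged minus young) of the hippocampal DEGs in hippocampus (x axis) and hypothalamus (y axis), with standard errors as bars, for the 41 DEGs tested in both tissues. All points lie in the quadrants of equal sign, and the dashed line marks equal values.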

How the data were processed

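Messenger RNA of 6 hippocampal libraries was compared, 3 of male mice aged 2 months and 3 of mice aged 15 months, with 6 hypothalamic mRNA libraries beside them, all grouped by their labels. The labels give the same mouse numbers in both tissues, and libraries of the same number correlated from -0.074 to 0.12 in their deviations from the group means, with 3 of 6 correlating best with their own number. The authors aligned reads to mm10 and the deposited files give for each gene an expected count and an FPKM. Genes absent from a file were taken as 0. Expected counts were rounded, filtered with filterByExpr, scaled by TMM factors and tested with edgeR 4.0.16 (quasi-likelihood test, R 4.3.3), with adjusted p by Benjamini and Hochberg. Genes were DEGs where the fold change exceeded 1.5 at an adjusted p below 0.05. Deposited FPKM served to compare levels between genes and in an alternative. DESeq2 1.42.0, limma 3.58.1, other scalings and filters, and fits without each mouse were alternatives, and removal of the trend with gene length was chosen after seeing the data. The edgeR test was tested on simulated data with 200 genes at 3-fold, of which 184 (92%) were recovered with 6 false calls. Smaller fold changes, such as those of most DEGs here, and a trend with gene length were not simulated. Genes eligible for naming were the 12 DEGs of each direction with the largest fold change and no overlap, the DEGs, the most abundant member and those of smallest p in each list until 4 were reached, the genes the study names, and substrain genes. Part of these are described. The comparison and the lists were chosen with earlier results of these data known. Small RNA libraries were not used.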

Additional observations from a re-analysis of the deposited data

Results flagged for a closer look

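Nap1l5, an imprinted gene of the nucleosome assembly family, was singled out because its aged libraries lay above all young libraries in the hippocampus and below all young libraries in the hypothalamus. It was at 276, 274 and 275 CPM in the young and 299, 301 and 347 CPM in the aged libraries of the hippocampus, and at 902, 965 and 891 CPM in young and 809, 824 and 888 CPM in aged hypothalami. The hippocampal log2 fold change exceeded the hypothalamic one by 0.32. The difference was tested with edgeR's interaction term, which gave an adjusted p of 0.961, so it is not shown to differ between the tissues.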

How the results depend on the processing

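The number of DEGs depended on the test and on single mice more than on scaling or filtering. In place of 43 DEGs, DESeq2 gave 218 and 1 fit of all 12 mRNA libraries gave 271, and each of these included all 43. Leaving out each mouse in turn gave from 4 to 81. DESeq2 size factors in edgeR gave 43, library totals only 59, every gene with at least 1 read 53, at least 10 counts in every library 44, limma on FPKM 61 with 0.1 added and 50 with 1 added, no fold limit 64, and removal of the length trend, chosen after seeing the data, 33. Of the 43 DEGs, limma on FPKM called 35 with 0.1 added and 32 with 1 added. Library totals called 42 of them, 10 counts in every library 39, and removal of the length trend 27. The interaction of age and tissue gave 0 genes by edgeR (653 at an unadjusted p under 0.05), also with other scaling, filtering, a replicate block or 1 mouse left out, and 3 by DESeq2. Of the 62 genes with a log2 fold change in the text, 39 were DEGs, and none of these changed direction in any alternative. Genes that were no DEGs changed sign in a few. Over the fits without 1 mouse, the log2 fold change of Gfap ran from -0.027 to 0.43, the log2 fold change of Pcdhgc5 from -0.035 to 0.15, the log2 fold change of Pcna from -0.042 to 0.014, the log2 fold change of Spag5 from -0.17 to 0.20 and the log2 fold change of Ttr from -0.72 to 0.029. With the length trend removed, Pcdhgc5 was at -0.00076 and Pcna at 0.11. The causes were not tested. Of 81 lists, the median kept its sign in 81 with DESeq2, 77 with library totals only, 74 with either FPKM setting and 69 with the length trend removed. Of the 26 lists with a median over 0.2 in size, these numbers were 26, 26, 24 and 26. Without 1 mouse, from 72 to 79 of the 81 medians and 25 or 26 of the 26 kept their sign. A replicate block by mouse number gave 0 interaction calls (869 genes at an unadjusted p under 0.05), as without it. The fit of all 12 mRNA libraries took the 2 tissues of the same mouse number as independent. With 3 mice per age, 1 dissection each, an hour of sampling that is not stated, 2 suppliers not assigned to mice and no cell counts, age cannot be told apart from these. The exact permutation of 3 against 3 cannot go below a p of 0.10.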
